A study of Danio rerio with 14 samples.

Results

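The transcripts described here code for 6 enzymes that make, recycle or break down purines, the adenine and guanine building blocks of ATP, GTP and nucleic acids. They were chosen by gene symbol, with older platform symbols brought to current ones: gart, impdh1b and adssl for purine synthesis, ada and nme2a for salvage and phosphate transfer, and entpd1 for the breakdown of extracellular ATP. The choice was made with earlier results of these data known. All 6 were among the 8445 genes measured in zebrafish eyes, and 13 of the 16913 probes reported on them. The NCBI gene identifiers were 58141 for gart, 338306 for impdh1b, 192305 for adssl, 436919 for ada, 335716 for nme2a and 445151 for entpd1.

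The eyes came from larvae of the Wild-type AB strain, in 4 groups. Larvae of the PTU 5 dpf group had been kept in 350 mg/L propylthiouracil (PTU), a drug that blocks thyroid hormone synthesis, since fertilization. They were sampled at 5 days post fertilization (dpf). Larvae of the control 5 dpf group had the same medium without PTU. Larvae of the PTU 8 dpf group had the same exposure followed by 3 days in clean water, and those of the control 8 dpf group were moved to clean water without earlier exposure. Each group had 3 RNA extracts from separate plates, each pooling the eyes of 10 larvae, so neither single larvae nor the parts of the eye can be told apart.

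The 12 extracts were hybridised on 14 two-colour arrays, and every value below comes from the log2 ratio of both channels. Arrays that paired PTU with control shared extracts, so counts of such arrays are not counts of independent pairs. At 8 dpf these arrays formed separate sets, joined only through arrays with 5 dpf extracts. Whether extracts overlapped at 8 dpf therefore rests on those links too. A level is the log2 difference of an extract from the mean of the control 5 dpf extracts, so 0 is that mean and 1 is a 2-fold higher signal. A log2 fold change is positive where the group named before the other is higher and is given ± its standard error (SE) from limma over all arrays. Levels came from plain least squares and fold changes from a weighted fit, so a fold change can differ from the gap between mean levels. A gene passed the test at a Benjamini-Hochberg adjusted p under 0.05 over all 8445 genes. The array that paired PTU 8 dpf replicate 1 with control 8 dpf replicate 2 had the largest residual spread (SD 0.344, against 0.174 to 0.286 on the other arrays). Results at 8 dpf that changed without this array or without 1 of its extracts are therefore named below. Leaving out PTU 8 dpf replicate 1 also removed 2 arrays, those that paired control 8 dpf replicates 1 and 2 with PTU 8 dpf. The arrays left that paired the groups at 8 dpf all carried control 8 dpf replicate 3. That loss cannot be told apart from the values of the extract itself. Of the eye markers, 25 of 33 for rods and cones and 20 of 26 for lens were measured. Markers of other tissues were measured as well, with 16 of 19 for muscle, 18 of 19 for skin and 4 of 12 for red blood cells. Being measured therefore does not show how much of a tissue was in the extracts. Some extracts stood apart in the markers of other tissues. Control 5 dpf replicate 3 had mean levels of −0.88 for 16 muscle markers, −0.47 for 18 skin markers and −0.80 for 4 red blood cell markers, against 0.05 and 0.83, 0.22 and 0.26, and 0.44 and 0.36 in the other control 5 dpf extracts. PTU 8 dpf replicate 1 was at 0.10 for the muscle markers, against −0.65 and −0.70 in the other PTU 8 dpf extracts. The ages differed too. Control and PTU eyes averaged 0.00 and 0.32 for the red blood cell markers at 5 dpf, and −1.21 and −1.03 at 8 dpf. The muscle markers went from 0.00 and 0.31 to −0.47 and −0.42, and the skin markers from 0.00 and 0.03 to −0.42 and −0.32. At 8 against 5 dpf 4 of 4, 2 of 16 and 4 of 18 were called lower in control eyes. In PTU eyes 4, 6 and 5 were. The part of such tissue in the comparisons of ages, or in the values that turned on these extracts, was not tested.

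Cells assemble purines stepwise on a sugar phosphate until IMP is reached, and then turn IMP into AMP or GMP along separate branches. Salvage enzymes recover bases and nucleosides at lower cost, kinases pass phosphate between nucleotides, and enzymes on the cell surface cut ATP that has left the cell down to AMP, the source of extracellular adenosine. In the eye, photoreceptors use GTP to form the cyclic GMP of phototransduction, and the silvery iridophores of fish store guanine as reflecting crystals.

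At the end of the exposure the 6 enzymes changed in different directions. At 5 dpf, PTU eyes had less nme2a (4.83-fold lower) and ada (2.4-fold lower) and more entpd1 (1.83-fold higher) and adssl (1.47-fold higher), while gart and impdh1b did not pass the test. After 3 days in clean water, gart, impdh1b, adssl and entpd1 were higher in PTU eyes, ada was lower, and nme2a did not pass. The ada fall at 8 dpf did not pass without PTU 8 dpf replicate 1 or with 1 level per extract. In these pooled eyes, fewer cells of a type and less RNA per cell cannot be told apart.

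At 5 dpf 2 of the 6 rose and 2 fell, when 24.2% of all genes were called higher and 22.8% lower. At 8 dpf 4 rose and 1 fell, when 19.6% of all genes were called higher and 13.2% lower. The 3 PTU extracts did not overlap the 3 control extracts for 5 of 6 enzymes at 5 dpf and for 5 of 6 at 8 dpf, a pattern that 52.0% of all genes showed at 5 dpf and 35.3% at 8 dpf. With so many of all genes called at 5 dpf, 4 calls among 6 enzymes are close to that background. The median log2 fold change of the 6 was −0.11 at 5 dpf and 0.42 at 8 dpf, against −0.00 and 0.01 over all genes, and their median absolute change was 0.71 and 0.49, against 0.21 and 0.17. Because the 6 were chosen with earlier results of these data known, these shares and medians describe them and do not test them. No test was run over the 6 as a group.

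**Figure D1:**
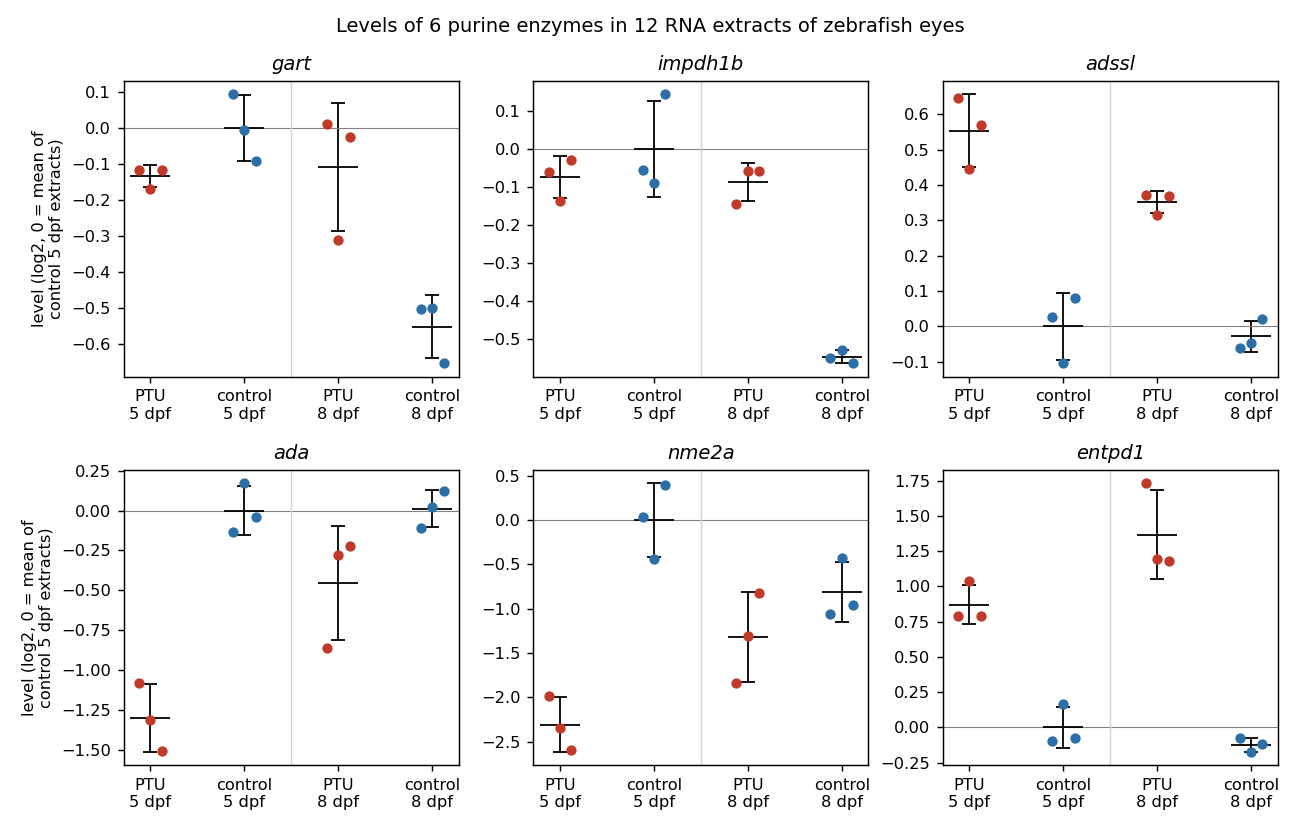
Levels of the 6 purine enzymes (log2, 0 = mean of the control 5 dpf extracts) in each of 12 RNA extracts; points are extracts (PTU red, control blue), bars are group mean ± SD with n = 3. The nme2a levels of PTU 5 dpf lay between −2.60 and −1.99, below every control extract of that age, and the gart and impdh1b levels of control 8 dpf lay below those of the other 3 groups.

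The gene gart codes for a trifunctional enzyme of the early ring-building steps of purine synthesis. At 5 dpf its level was −0.12, −0.17 and −0.12 in the PTU extracts, against 0.09, −0.00 and −0.09 in the control extracts. All 3 PTU extracts lay below all 3 control extracts, by little, and PTU was below control on 6 of 6 arrays that paired the groups. The log2 fold change of −0.16 ± 0.06 (95% confidence interval −0.29 to −0.02) did not pass (adjusted p = 0.0551), and it did pass with arrays taken as independent (adjusted p = 0.0188), with a dye term (0.0434), without control 5 dpf replicate 3 (−0.21, adjusted p = 0.0359) or without control 8 dpf replicate 3 (adjusted p = 0.0453).

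At 8 dpf the gart level was 0.01, −0.31 and −0.02 in the PTU extracts, against −0.50, −0.50 and −0.65 in the control extracts. The groups did not overlap, and PTU was above control on 4 of 4 arrays. The transcript rose by 0.47 ± 0.07, or 1.38-fold (adjusted p = 0.000122). The PTU effect at 8 dpf exceeded that at 5 dpf by 0.62 ± 0.09 (adjusted p = 0.000481).

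Most of that difference lay in the controls. In control eyes gart averaged −0.55 ± 0.09 at 8 dpf and 0.00 ± 0.09 at 5 dpf (SD, n = 3 each). By limma the fall was −0.62 ± 0.09 (SE, adjusted p = 0.000415). The fall was −0.48 and did not pass without control 5 dpf replicate 1, which was on 4 arrays (adjusted p = 0.123). In PTU eyes gart averaged −0.11 ± 0.18 at 8 dpf and −0.13 ± 0.03 at 5 dpf, and the change of 0.00 ± 0.09 did not pass (95% confidence interval −0.18 to 0.19, adjusted p = 0.981). Ordered by level, control 5 dpf, PTU 8 dpf and PTU 5 dpf lay close together, the PTU groups with overlapping extracts, and control 8 dpf lay below them.

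The gene impdh1b codes for an IMP dehydrogenase, the rate-limiting enzyme of the branch to GMP. In people, mutations of IMPDH1 cause a form of retinitis pigmentosa. At 5 dpf its level was −0.06, −0.14 and −0.03 in the PTU extracts, against −0.05, −0.09 and 0.14 in the control extracts. These extracts overlapped, PTU was below control on 4 of 6 arrays, and the log2 fold change of −0.07 ± 0.05 (95% confidence interval −0.17 to 0.04) did not pass (adjusted p = 0.292).

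At 8 dpf impdh1b was at −0.15, −0.06 and −0.06 in the PTU extracts, against −0.55, −0.53 and −0.56 in the control extracts. The groups were clearly apart, PTU was above control on 4 of 4 arrays, and the rise was 0.46 ± 0.06, or 1.37-fold (adjusted p = 1.69e-05). The effect at 8 dpf exceeded that at 5 dpf by 0.52 ± 0.07 (adjusted p = 0.000306).

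As with gart, the controls moved with age. Control eyes averaged −0.55 ± 0.02 at 8 dpf and 0.00 ± 0.13 at 5 dpf (SD, n = 3 each). By limma the fall was −0.51 ± 0.07 (SE, adjusted p = 0.000275). PTU eyes averaged −0.09 ± 0.05 at 8 dpf and −0.07 ± 0.06 at 5 dpf, with a change of 0.01 ± 0.07 that did not pass (95% confidence interval −0.14 to 0.16, adjusted p = 0.957). Control 5 dpf and both PTU groups overlapped, and control 8 dpf was the lowest group.

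The gene adssl codes for an adenylosuccinate synthase, which opens the branch to AMP. At 5 dpf its level was 0.65, 0.45 and 0.57 in the PTU extracts, against 0.03, −0.10 and 0.08 in the control extracts. All PTU extracts lay above all control extracts, PTU was above control on 6 of 6 arrays, and the rise was 0.56 ± 0.06 (adjusted p = 1.66e-06). At 8 dpf the level was 0.37, 0.32 and 0.37 in the PTU extracts, against −0.06, −0.05 and 0.02 in the control extracts.

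The rise of adssl at 8 dpf was 0.38 ± 0.06, or 1.3-fold (adjusted p = 0.000341), again on 4 of 4 arrays. As a gene value, it was the enzyme of the 6 whose PTU effect was not shown to differ between the ages (−0.18 ± 0.09 for 8 dpf minus 5 dpf, 95% confidence interval −0.36 to 0.00, adjusted p = 0.163). Control eyes differed by −0.08 ± 0.08 at 8 against 5 dpf, which did not pass (95% confidence interval −0.25 to 0.09, adjusted p = 0.594). PTU eyes were lower at 8 than at 5 dpf by −0.26 ± 0.08 (adjusted p = 0.0414), a call near the threshold that was lost in 13 of 21 alternatives, with adjusted p up to 0.582 without PTU 5 dpf replicate 1. The order was PTU 5 dpf, PTU 8 dpf and then both control groups, whose extracts overlapped.

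**Figure D2:**
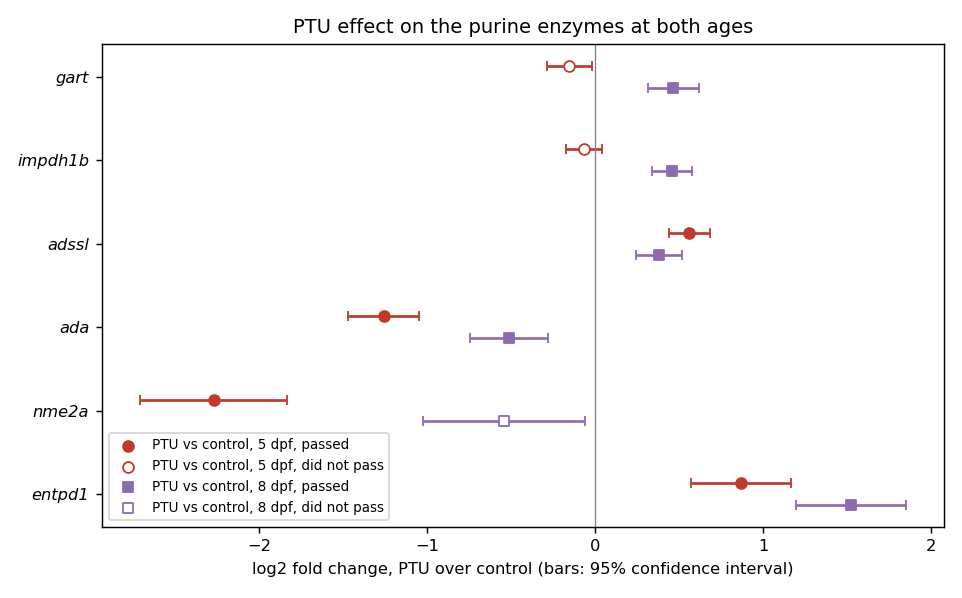
Log2 fold change of PTU over control for each purine enzyme at 5 dpf (red circles) and at 8 dpf (purple squares), with 95% confidence intervals from limma over 14 arrays; filled symbols passed the test and open symbols did not. The value for gart was −0.16 at 5 dpf and 0.47 at 8 dpf, and that for nme2a was −2.27 at 5 dpf and −0.54 at 8 dpf.

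The gene ada codes for adenosine deaminase, which turns adenosine into inosine for salvage or breakdown. At 5 dpf its level was −1.08, −1.31 and −1.51 in the PTU extracts, against −0.13, 0.17 and −0.04 in the control extracts. The groups were far apart, and PTU was below control on 6 of 6 arrays. The fall was −1.26 ± 0.10 (adjusted p = 1.1e-07).

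At 8 dpf ada was at −0.86, −0.28 and −0.22 in the PTU extracts, against −0.11, 0.02 and 0.12 in the control extracts. PTU 8 dpf replicate 1 was the low extract, and all 3 PTU extracts lay below all 3 control extracts. The fall was −0.51 ± 0.11, or 1.43-fold (adjusted p = 0.00214), on 4 of 4 arrays. Without PTU 8 dpf replicate 1 and its 2 arrays it was −0.31 and no longer passed (adjusted p = 0.0543). With 1 level per extract it was −0.47 and did not pass either (adjusted p = 0.0617).

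The PTU effect on ada at 8 dpf was higher, that is less negative, than that at 5 dpf by 0.75 ± 0.15 (adjusted p = 0.00302). Here the PTU eyes moved with age. They averaged −0.45 ± 0.35 at 8 dpf and −1.30 ± 0.21 at 5 dpf (SD, n = 3 each). By limma the rise was 0.83 ± 0.14 (SE, adjusted p = 0.00122), and it did not pass without control 5 dpf replicate 1 (0.65, adjusted p = 0.0881). Control eyes differed by 0.08 ± 0.14 at 8 against 5 dpf, which did not pass (95% confidence interval −0.21 to 0.37, adjusted p = 0.773). The control groups overlapped at the top of the order, followed by PTU 8 dpf and PTU 5 dpf.

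The gene nme2a codes for a nucleoside diphosphate kinase, which moves phosphate from ATP onto GDP and other nucleoside diphosphates. It had the largest change of the 6 at 5 dpf. Its level was −1.99, −2.34 and −2.60 in the PTU extracts, against 0.04, −0.43 and 0.40 in the control extracts. PTU was below control on 6 of 6 arrays, by between −2.88 and −1.34, and the fall was −2.27 ± 0.20 (adjusted p = 4.54e-07).

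At 8 dpf nme2a was at −1.84, −1.31 and −0.82 in the PTU extracts, against −1.06, −0.42 and −0.96 in the control extracts. The extracts overlapped and spread widely, and PTU was below control on 3 of 4 arrays. The log2 fold change of −0.54 ± 0.23 (95% confidence interval −1.03 to −0.06) did not pass (adjusted p = 0.0800). It was −0.19 without PTU 8 dpf replicate 1 and its 2 arrays (adjusted p = 0.612). Without PTU 8 dpf replicate 3 and its 2 arrays it was −0.77 and past the threshold (adjusted p = 0.0409).

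For nme2a the PTU effect at 8 dpf was higher than that at 5 dpf by 1.73 ± 0.31 (adjusted p = 0.00147). PTU eyes averaged −1.32 ± 0.51 at 8 dpf and −2.31 ± 0.31 at 5 dpf (SD, n = 3 each). By limma the rise was 0.94 ± 0.29 (SE, adjusted p = 0.0385). That rise did not pass in 10 of 21 alternatives, with adjusted p up to 0.309 without control 5 dpf replicate 1. Control eyes averaged −0.81 ± 0.34 at 8 dpf and 0.00 ± 0.42 at 5 dpf, and the change of −0.79 ± 0.29 (95% confidence interval −1.40 to −0.18) did not pass (adjusted p = 0.0937), although it did in 5 of 21 alternatives. Control 5 dpf was the highest group, with 1 extract just below the highest of control 8 dpf, control 8 dpf and PTU 8 dpf overlapped, and PTU 5 dpf was the lowest.

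The gene entpd1 codes for an ectonucleotidase of the cell surface (CD39 in mammals), which cuts extracellular ATP and ADP to AMP. At 5 dpf its level was 0.79, 1.03 and 0.79 in the PTU extracts, against −0.09, 0.17 and −0.07 in the control extracts. At 8 dpf it was 1.73, 1.19 and 1.18 in the PTU extracts, against −0.08, −0.17 and −0.12 in the control extracts. PTU and control did not overlap at either age, and PTU was above control on 6 of 6 arrays at 5 dpf and on 4 of 4 at 8 dpf.

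The rise of entpd1 was 0.87 ± 0.14 at 5 dpf (adjusted p = 0.000116) and 1.52 ± 0.15, or 2.87-fold, at 8 dpf (adjusted p = 2.8e-06). It was 1.3 at 8 dpf without PTU 8 dpf replicate 1, the highest extract, and its 2 arrays (adjusted p = 0.000241). The effect at 8 dpf exceeded that at 5 dpf by 0.65 ± 0.21 (adjusted p = 0.0396). This difference did not pass in 11 of 22 alternatives, and was smallest without PTU 8 dpf replicate 1 (0.44, adjusted p = 0.176).

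In PTU eyes entpd1 averaged 1.37 ± 0.32 at 8 dpf and 0.87 ± 0.14 at 5 dpf (SD, n = 3 each). All extracts of PTU 8 dpf lay above those of PTU 5 dpf, but the change of 0.51 ± 0.19 (SE, 95% confidence interval 0.09 to 0.93) did not pass (adjusted p = 0.0930). Control eyes averaged −0.12 ± 0.05 at 8 dpf and 0.00 ± 0.14 at 5 dpf, with a change of −0.15 ± 0.19 that did not pass (95% confidence interval −0.56 to 0.27, adjusted p = 0.693). The order was PTU 8 dpf, PTU 5 dpf and then both control groups, whose extracts overlapped.

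Across the ages, 5 of the 6 effects were higher at 8 dpf than at 5 dpf and none was lower, when 11.9% of all genes were called higher and 6.92% lower. The median of these differences was 0.64 over the 6 and 0.01 over all genes. They were of unlike kinds. For ada and nme2a the effect became less negative, and for gart and impdh1b a rise passed at 8 dpf only. For entpd1 the rise became larger, a call that was lost in 11 of 22 alternatives. In control eyes at 8 against 5 dpf, 0 of the 6 rose and 2 fell by limma, when 4.67% of all genes were called higher and 7.05% lower. In PTU eyes at 8 against 5 dpf, 2 rose and 1 fell, when 8.77% of all genes were called higher and 6.69% lower. The counts behind these shares depended on which extracts and arrays entered the fit. Without 1 extract, between 126 and 1341 genes were called in control eyes (989 with all) and between 119 and 1613 in PTU eyes (1306 with all), the fewest without control 5 dpf replicate 1 in control eyes and without PTU 5 dpf replicate 1 in PTU eyes. Every array that linked the ages carried control 5 dpf replicate 1 or PTU 5 dpf replicate 1. Each of these was on 4 arrays, against 2 for any other extract. Leaving either out thus also removed linking arrays, which cannot be told apart from the values of the extract itself. The comparisons share groups and are given side by side.

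Single probes showed how far each gene value rests on 1 sequence. The probe rule followed the study's methods, with arrays taken as independent, an adjusted p under 0.05 and a log2 fold change above 0.75 in size (1.68-fold). By this rule 5 of the 13 probes were called at 5 dpf, when 8.82% of all probes were, and 1 at 8 dpf, when 6.39% were. The 5 were 1 of the adssl probes, the ada probe, both nme2a probes and the entpd1 probe, and the call at 8 dpf was entpd1. With the adjusted p alone, 7 of the 13 probes passed at 5 dpf and 11 at 8 dpf, when 8501 and 5628 of all 16913 probes did.

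Probes of a gene agreed in direction but not always in size. The adssl probes gave 0.83 ± 0.06 and 0.30 ± 0.06 at 5 dpf, and 0.53 ± 0.07 and 0.23 ± 0.07 at 8 dpf. Their differences between the ages were −0.30 ± 0.09, which passed on the adjusted p (0.0267), and −0.07 ± 0.09, which did not (0.630), while the gene value did not pass. The gart probes gave −0.10 ± 0.07 and −0.23 ± 0.05 at 5 dpf, and 0.60 ± 0.09 and 0.34 ± 0.06 at 8 dpf. For nme2a both probes fell alike at 5 dpf (−2.31 ± 0.20 and −2.20 ± 0.18). At 8 dpf they gave −0.44 ± 0.23 (limma adjusted p = 0.165) and −0.66 ± 0.21 (adjusted p = 0.0285), so that 1 of the 2 passed on the adjusted p.

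The impdh1b probes disagreed at 8 dpf. Of its 5 probes, 4 gave 0.70, 0.55, 0.67 and 0.34, each past the adjusted p threshold, while probe A_15_P512992 gave 0.02 ± 0.08 (limma adjusted p = 0.884). On this probe the log2 ratios of the 14 arrays ran from −0.40 to 0.10 only. The gene value of 0.46 averages all 5, and the most variable probe alone gave 0.70. The enzymes ada and entpd1 had 1 probe each, so their values have no check by another probe.

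**Figure D3:**
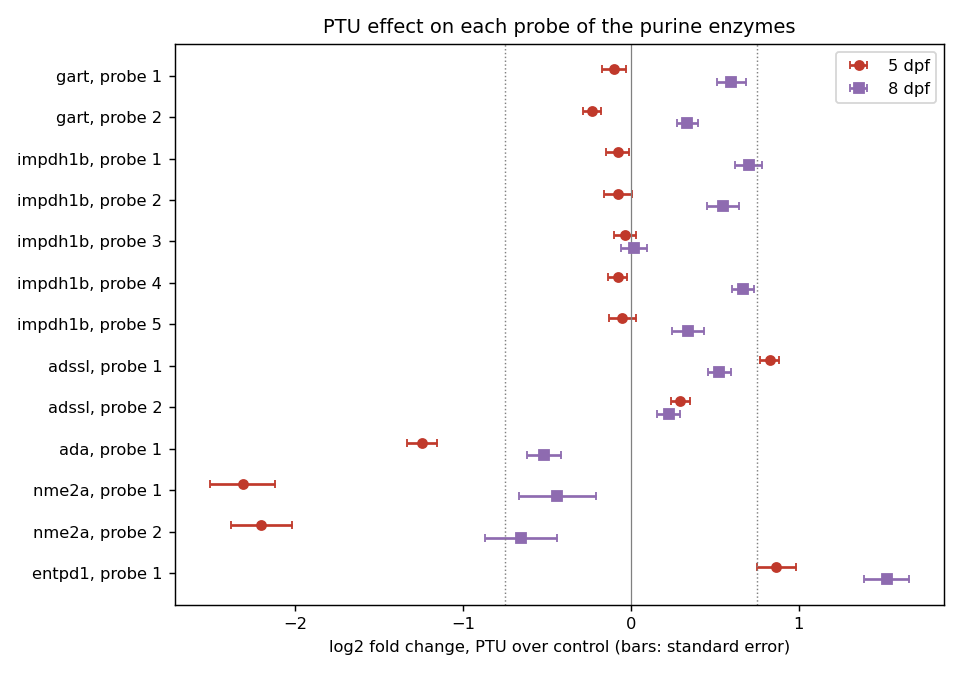
Log2 fold change of PTU over control for each of the 13 probes of the purine enzymes at 5 dpf (red circles) and 8 dpf (purple squares); bars are standard errors and dotted lines mark an absolute log2 fold change of 0.75. The third impdh1b probe lay at −0.03 and 0.02, while the other 4 probes of that gene lay between 0.34 and 0.70 at 8 dpf.

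Related genes did not always follow the enzyme they resemble. The other measured IMP dehydrogenase gene, impdh1a, fell by −0.60 ± 0.10 at 5 dpf (adjusted p = 0.000144) and by −0.71 ± 0.11 at 8 dpf (adjusted p = 0.000151), the age at which impdh1b rose. The other adenylosuccinate synthase, adss2, was at 0.13 ± 0.09 and −0.03 ± 0.10 and passed at neither age. Of the nucleoside diphosphate kinases next to nme2a in name, nme2b.1 rose by 0.33 ± 0.11 at 5 dpf (adjusted p = 0.0270) and by 0.53 ± 0.13 at 8 dpf (adjusted p = 0.00475), and nme2b.2 was at 0.47 ± 0.20 and 0.22 ± 0.22 and did not pass. The secreted adenosine deaminase gene ada2a fell by −0.34 ± 0.07 at 5 dpf (adjusted p = 0.00102) and was at 0.00 ± 0.08 at 8 dpf. The entpd1 relative entpd2a.1 rose by 0.17 ± 0.07 at 5 dpf (adjusted p = 0.0410) and by 0.34 ± 0.07 at 8 dpf (adjusted p = 0.00243), while entpd3 was at 0.01 ± 0.06 and −0.08 ± 0.06 and passed at neither age. Whether probes of such near copies also bind each other's transcripts was not tested.

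The rest of purine metabolism was described from lists that held 55 other measured genes. At 5 dpf 8 of these rose, 18 fell and 29 did not pass, while at 8 dpf 6 rose, 6 fell and 43 did not pass. The median over all 61 genes, the 6 enzymes included, was −0.04 at 5 dpf and 0.01 at 8 dpf. Against the shares of all genes given above, fewer of the 55 rose at 5 dpf and more fell, while at 8 dpf fewer rose and fewer fell. No test was run over the lists.

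In the de novo pathway 7 genes were measured, of which 1 rose and 1 fell at 5 dpf. The fall was that of paics (−0.37 ± 0.07, adjusted p = 0.000458), the bifunctional enzyme that acts after gart, and the rise that of prps1a (0.44 ± 0.10, adjusted p = 0.00245), which makes the activated ribose phosphate. At 8 dpf gart was the gene of the 7 that passed. The effect on paics at 8 dpf exceeded that at 5 dpf by 0.47 ± 0.10 (adjusted p = 0.00625), and its level in control eyes fell with age by −0.36 ± 0.10 (adjusted p = 0.0237), as that of gart did.

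In the AMP and GMP branch 7 genes were measured, with 2 higher and 1 lower at 5 dpf and 3 higher and 1 lower at 8 dpf. Besides adssl, impdh1a and impdh1b, the gene that passed was gmpr2, a GMP reductase that leads GMP back to IMP, which rose by 0.22 ± 0.06 (adjusted p = 0.00861) at 5 dpf and by 0.37 ± 0.07 (adjusted p = 0.000716) at 8 dpf.

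Of 13 measured salvage and breakdown genes 6 were lower and 3 higher at 5 dpf. The purine nucleoside phosphorylase pnp4a fell by −1.38 ± 0.09 (adjusted p = 1.71e-08) at 5 dpf. Its relative pnp6 fell by −1.12 ± 0.13 (adjusted p = 5.85e-06), and uraha, of urate breakdown, fell by −0.65 ± 0.08 (adjusted p = 1.33e-05). A further purine nucleoside phosphorylase, pnp5b, rose by 0.46 ± 0.10 (adjusted p = 0.00141), and its effect at 8 dpf was lower than that at 5 dpf by −0.66 ± 0.15 (adjusted p = 0.00624). The other rises at 5 dpf were those of itpa (0.41 ± 0.09, adjusted p = 0.00121), which removes inosine triphosphate, and the adenosine kinase adkb (0.28 ± 0.07, adjusted p = 0.00502). At 8 dpf 2 rose and 2 fell, with aprt, which salvages adenine, at 0.40 ± 0.09 (adjusted p = 0.00276) and itpa at 0.39 ± 0.10 (adjusted p = 0.00656). The falls at 8 dpf were those of ada and pnp6 (−0.49 ± 0.14, adjusted p = 0.0179).

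Of 12 phosphate transfer genes 1 rose and 5 fell at 5 dpf. Next to nme2a the falls were led by the mitochondrial adenylate kinase ak4 (−1.24 ± 0.11, adjusted p = 3.61e-07), the guanylate kinase guk1b (−1.05 ± 0.17, adjusted p = 0.000103) and the adenylate kinase ak1 (−0.54 ± 0.12, adjusted p = 0.00200). At 8 dpf nme2b.1 rose and ak4 fell (−0.40 ± 0.12, adjusted p = 0.0202), and guk1b was at −0.05 ± 0.18. For ak4, guk1b and nme2a the effect at 8 dpf was higher than at 5 dpf, by 0.84 ± 0.16 (adjusted p = 0.00277), 1.01 ± 0.25 (adjusted p = 0.0114) and 1.73 ± 0.31.

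**Figure D4:**
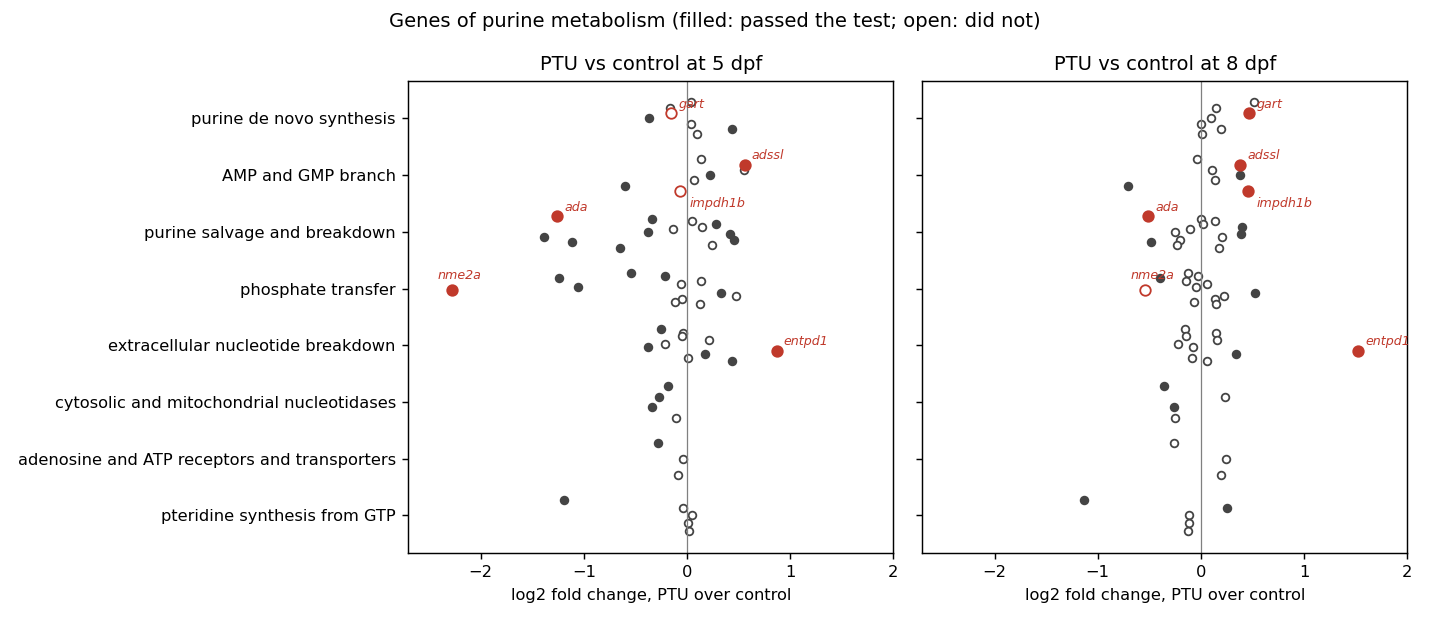
Log2 fold change of PTU over control for 61 genes of 8 purine lists at 5 dpf (left) and 8 dpf (right), 1 point per gene, with the 6 enzymes in red; filled points passed the test and open points did not. Of the 12 phosphate transfer genes 5 fell at 5 dpf and 1 at 8 dpf, and entpd1 was the highest point in both panels.

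The list named for extracellular nucleotide breakdown held 10 measured genes. Not all of these act outside the cell, and not all need act on nucleotides. Of these, 3 were higher and 2 lower at 5 dpf, and 2 were higher and none lower at 8 dpf. Besides the genes above, entpd4, an enzyme of intracellular membranes, rose by 0.44 ± 0.06 (adjusted p = 3.31e-05) at 5 dpf, and enpp6 (−0.38 ± 0.09, adjusted p = 0.00220) and the alkaline phosphatase alpl (−0.26 ± 0.09, adjusted p = 0.0279) fell. Of 4 nucleotidases inside the cell 3 fell at 5 dpf, namely nt5c2b (−0.34 ± 0.07), nt5c2a (−0.27 ± 0.09) and nt5c1ba (−0.19 ± 0.06), and 2 fell at 8 dpf, nt5c1ba (−0.35 ± 0.07) and nt5c2b (−0.27 ± 0.08). Of 3 receptor and transporter genes the ATP-gated channel gene p2rx5 fell at 5 dpf (−0.28 ± 0.10, adjusted p = 0.0252).

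GTP also feeds pteridine synthesis, which colours the yellow pigment cells of fish. Of its 5 measured genes gch2, a GTP cyclohydrolase, fell by −1.19 ± 0.16 (adjusted p = 2.09e-05) at 5 dpf and by −1.13 ± 0.18 (adjusted p = 0.000168) at 8 dpf. The gene pcbd1 rose at 8 dpf by 0.25 ± 0.09 (adjusted p = 0.0452), and the other 3 passed at neither age.

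Markers of several cell types moved in the same extracts. Proliferation markers, 15 genes such as pcna and mcm5, averaged 0.39 in PTU 5 dpf and 0.00 in control 5 dpf, and 0.11 in PTU 8 dpf and −0.51 in control 8 dpf. Of these 12 rose at 5 dpf and 14 at 8 dpf with PTU, 0 fell, and 12 of the 15 fell in control eyes at 8 against 5 dpf. Control 8 dpf was thus the lowest group for this list, as it was for gart and impdh1b, but PTU 5 dpf lay above control 5 dpf for the list, unlike for these enzymes. The part of dividing cells in the gart and impdh1b values was not tested.

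Macrophage, microglia and neutrophil markers, 14 genes, were high in PTU eyes, as entpd1 was. Their mean level lay between 1.01 and 1.18 in PTU 5 dpf, against −0.08 to 0.08 in control 5 dpf, and between 1.87 and 1.96 in PTU 8 dpf, against 0.05 to 0.09 in control 8 dpf. At 5 dpf 10 of the 14 rose and at 8 dpf 13, with 0 lower at either age by limma, and among those that rose were lcp1 (2.35 ± 0.10 and 3.12 ± 0.11) and mpeg1.1 (0.92 ± 0.09 and 0.77 ± 0.10). As for entpd1, PTU 8 dpf was above PTU 5 dpf and both were above the controls. The entpd1 change between the PTU groups (0.51 ± 0.19) did not pass by limma (adjusted p = 0.0930). Control 8 dpf lay above control 5 dpf for the list (means 0.07 and 0.00) and below it for entpd1 (−0.12 and 0.00). The part of these cells in the entpd1 values was not tested.

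For ada and nme2a, lens and photoreceptor markers were lowest in PTU 5 dpf as well. The 20 lens markers averaged −1.55 in PTU 5 dpf and 0.00 in control 5 dpf, and −0.47 in PTU 8 dpf and −0.01 in control 8 dpf, with 18 lower and 2 higher at 5 dpf and 15 lower and 3 higher at 8 dpf. The 25 rod and cone markers averaged −1.51 in PTU 5 dpf and 0.00 in control 5 dpf, and −1.15 in PTU 8 dpf and −0.82 in control 8 dpf, with 19 lower and 1 higher at 5 dpf and 11 lower and 7 higher at 8 dpf. PTU 8 dpf replicate 1, the low extract for ada and nme2a, was also the lowest of its group for the lens list (−0.81, against −0.24 and −0.35 in the other PTU 8 dpf extracts) and for the rod and cone list (−1.58, against −0.94 and −0.93). PTU 5 dpf replicate 3, the lowest of its group for both enzymes, was lowest for the rod and cone list (−1.71). For the lens list it was the highest (−1.35, against −1.48 and −1.82). Control 8 dpf averaged 0.01 for ada, unlike the rod and cone list, and −0.81 for nme2a, unlike the lens list.

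Pigment cell lists were lower in PTU eyes at 5 dpf too. The 5 iridophore markers, pnp4a among them, averaged −0.97 in PTU 5 dpf and 0.00 in control 5 dpf, and −0.57 in PTU 8 dpf and −0.72 in control 8 dpf, and all 5 fell at 5 dpf while none passed at 8 dpf by limma. The 10 melanin and pigment epithelium markers averaged −0.96 in PTU 5 dpf and 0.00 in control 5 dpf, and −0.49 in PTU 8 dpf and −0.48 in control 8 dpf, with 8 lower and 1 higher at 5 dpf and 3 lower and 2 higher at 8 dpf. The close means at 8 dpf covered changes in both directions, with tyrp1b, an enzyme of melanin formation, at 1.88 ± 0.16 (adjusted p = 4.36e-07) and the visual cycle gene rpe65a at −0.98 ± 0.13 (adjusted p = 4.61e-05). The mean of this list at 5 dpf was uneven as well. At that age rlbp1b, rpe65a and rdh5 changed by −2.73 ± 0.24, −2.56 ± 0.12 and −2.12 ± 0.18. The other genes of the list ran from −0.71 (slc45a2) to 0.47 (tyrp1b), and the median over the list was −0.64. The part of lens, photoreceptor and pigment cells in the ada and nme2a values was not tested.

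**Figure D5:**
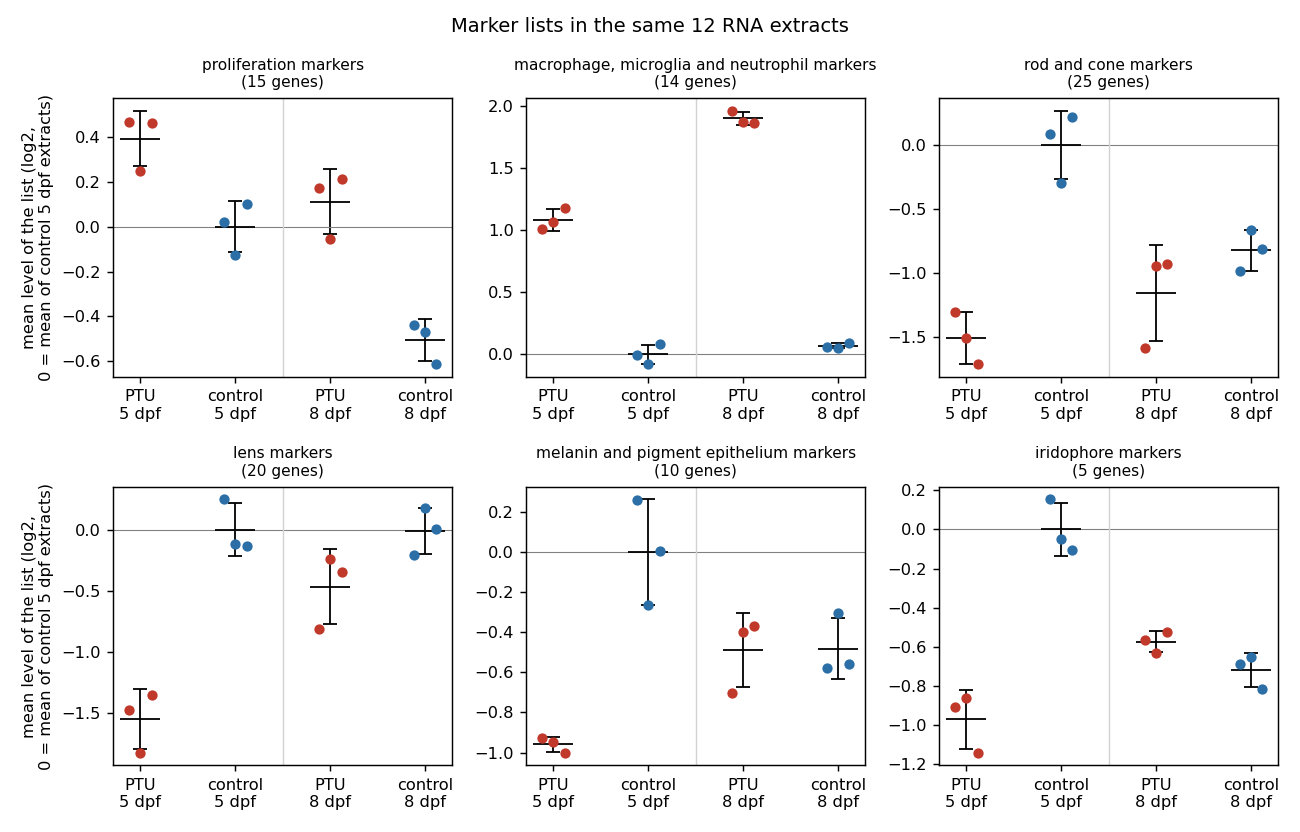
Mean level of 6 marker lists (log2, 0 = mean of the control 5 dpf extracts) in the same 12 RNA extracts, drawn as for the enzymes (PTU red, control blue; bars are mean ± SD, n = 3). The proliferation list was lowest in control 8 dpf (−0.51), the immune cell list was highest in PTU 8 dpf (1.90), and the lens list was lowest in PTU 5 dpf (−1.55).

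Among themselves the enzymes fell into patterns over the 12 extracts, which share arrays and the group differences above. The levels of gart and impdh1b had a Pearson r of 0.84, those of ada and nme2a 0.88, and those of adssl and entpd1 0.76. The adssl levels ran against those of ada (r = −0.88), and gart and nme2a showed almost no relation (r = 0.01). These values are descriptions over the same extracts.

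Over the same 12 extracts, among 5887 genes whose levels ranged over at least 0.5, the genes most like gart were sms (r = 0.936), cdca3 (0.924) and prim2 (0.923). Those most like impdh1b were hmgn2 (0.967), neurod1 (0.962) and mibp (0.961), and those most like adssl were aanat1 (0.990), asf1bb (0.987) and pdia6 (0.983). For ada they were zgc:112285 (0.979), rnf11a (0.976) and mybpc1 (0.974), and for nme2a zgc:195245 (0.986), cbx3b (0.984) and arl3l2 (0.981). For entpd1 they were c1ql1 (0.984), mcamb (0.982) and zgc:123010 (0.980). The genes most like impdh1b, hmgn2, neurod1 and mibp, had log2 fold changes of 1.53, 1.06 and 0.28 at 8 dpf, and −0.16, −0.03 and −0.13 at 5 dpf. The best match of entpd1, c1ql1, had 2.00 at 5 dpf and 3.17 at 8 dpf.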

How the data were processed

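The deposited table held log2 ratios, Cy5 over Cy3, that the authors computed for 16914 spots on 14 two-colour Agilent arrays. Per the study's methods, the authors scanned and read the arrays with GenePix software, left out spots near local background on all arrays, corrected the background with normexp and normalized within arrays by loess in limma 3.34.4. Scale and direction are not stated in the table and were taken from the methods and dye labels. Single-channel intensities, slides and scans were not used here; signal over background is therefore unknown, and precision is limited by how many arrays there were.

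After leaving out 1 control spot, 13708 of 16913 probes were assigned to 8445 genes (GRCz12tu annotation), 11865 by accession, 1446 by current, 391 by older and 6 by platform symbol; 3205 had no gene listed. The probes of a gene were averaged. Group differences came from limma 3.58.1 in R 4.3.3 by generalized least squares with a random effect of RNA extract (variance ratio 0.138 to the array variance, estimated once over all genes; 11 residual and 3.69 prior degrees of freedom). Tests were two-sided with Benjamini-Hochberg adjustment over all genes; 3 against 3 extracts alone could not reach an exact permutation p under 0.1. SEs are too small for genes whose extracts vary more than this ratio. This bears on the enzymes too. Extract SDs in PTU 8 dpf were 0.51 for nme2a and 0.35 for ada (n = 3). The SEs of their PTU effects at 8 dpf were 0.23 and 0.11. With 1 level per extract the ada fall at 8 dpf did not pass. PTU extracts were in Cy5 on as many direct arrays as in Cy3 at each age.

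The 6 enzymes and all lists were chosen with earlier results of these data known. Named besides them are up to 4 called genes per purine list with the smallest p at 5 and at 8 dpf, measured paralogs, and the 3 genes most correlated with each enzyme. The effects of paics, ak4 and guk1b across ages, pnp5b, adkb, itpa at 5 dpf and entpd3 were chosen after their values were seen. So were the markers pcna, mcm5, lcp1, mpeg1.1, tyrp1b, rpe65a, rlbp1b, rdh5 and slc45a2. Alternatives were other array scalings, a dye term, arrays as independent, 1 level per extract, the replicate number as a block, direct arrays only, robust moderation, the most variable probe, other fold thresholds, and each extract left out; leaving out the array with the largest residual spread was added after seeing the data. Steps were tested on simulated data. Figures were drawn with matplotlib 3.10.9 in Python 3.11.15.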

Additional observations from a re-analysis of the deposited data

Results flagged for a closer look

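A PTU effect that differed between the 2 ages, by limma's test of the difference itself (8 dpf minus 5 dpf, adjusted over all genes), was found for 5 of the 6 enzymes. Of all genes, 11.9% were called higher and 6.92% lower by this test. The difference was 0.62 for gart (adjusted p = 0.000481), 0.52 for impdh1b (0.000306), 0.75 for ada (0.00302), 1.73 for nme2a (0.00147) and 0.65 for entpd1 (0.0396). The call for entpd1 was lost in 11 of 22 alternatives. The synthesis enzymes gart and impdh1b had effects of 0.47 and 0.46 at 8 dpf and of −0.16 and −0.07, neither past the threshold, at 5 dpf. Among 12 sets of direct arrays, 1 per enzyme and age, none held an array flagged by Dixon's rule. The rule asks that the gap to the nearest value fill most of the set's range. With so few arrays per set it can miss an array that differs.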

How the results depend on the processing

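Of 648 values of the 30 enzyme results under alternatives, 580 kept their direction and side of the threshold, 38 lost a call, 12 gained one and 18 changed sign. The sign changes all concerned values that had not passed: gart in PTU eyes at 8 against 5 dpf was −0.0080 with arrays as independent and −0.051 with scaled arrays, and lay between −0.073 and 0.11 with 1 extract left out. In the same comparison impdh1b was −0.013 with 1 level per extract, −0.012 with scaled arrays and −0.010 with the replicate block, and lay between −0.024 and 0.047 with 1 extract left out. In control eyes across the ages ada lay between −0.13 and 0.25. With 1 extract left out, or the array with the largest residual spread, 4 to 5 enzymes passed at 5 dpf, 4 to 6 at 8 dpf, 4 to 5 for the difference of the effects, 1 to 3 in control eyes and 0 to 3 in PTU eyes across the ages, the lowest of these without control 5 dpf replicate 1. Genes called then numbered 2642 to 4242, 1706 to 2953, 586 to 2129, 126 to 1355 and 119 to 1648, and probes, with 1 extract left out, 1439 to 1587 at 5 dpf and 1054 to 1188 at 8 dpf.

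With direct arrays only, 1543 genes were called at 8 dpf (2767 in the report's fit) and 994 for the difference (1587). Fewer arrays entered these fits. With 1 level per extract 644 genes were called for the difference. That fit drew on all 14 arrays and all 12 extracts, and took the extract and not the array as the unit. Scaled arrays left 1 enzyme in PTU eyes at 8 against 5 dpf. Without a fold threshold 8501 and 5628 probes passed at 5 and 8 dpf, and with an absolute log2 fold change over 1, 855 and 605. Same-numbered PTU and control extracts correlated at −0.187, 0.135 and −0.092 at 5 dpf and at 0.627, 0.172 and −0.221 at 8 dpf. These pairs were few and some shared an array, so the values cannot decide whether the numbers pair the samples. With the replicate block, 4 enzymes passed at 5 dpf and 5 at 8 dpf, and in PTU eyes across the ages 1 enzyme and 794 genes (1306 without it). The age comparisons could not be run on direct arrays only, with 1 array each. Where no construction is named, the cause was not tested.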
